A study of Mus musculus with 12 samples.

Results

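DNA methylation was examined at the genes of succinate dehydrogenase (SDH) itself: the 4 subunit genes Sdha, Sdhb, Sdhc and Sdhd and the 4 assembly factor genes Sdhaf1, Sdhaf2, Sdhaf3 and Sdhaf4, which are 8 of the 33544 autosomal genes whose start site could be placed. Their cytosines were taken within 1500 bp before and 500 bp after the start of transcription (the promoter) and, separately, from the rest of the gene (the gene body), and a cytosine entered when it was listed in at least 10 of the 12 libraries. This gave 324 of 1201548 such autosomal cytosines, 279 in the 8 promoters and 45 in the gene bodies.

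The libraries are reduced representation bisulfite sequencing (RRBS), which reads cytosine methylation in CpG-rich fragments, from 2 lines of mouse embryonic fibroblasts immortalised with SV40 virus (iMEFs). Both lines carried the doxycycline-dependent activator at Rosa26 (R26M2rtTA/+) and the inducible Cre (TetOcre), and both received doxycycline. They differed at Sdhc: the experimental line was Sdhcfl/fl and is designed to lose both copies of the floxed exon 4, whereas the control line was Sdhcfl/wt and keeps a wild-type copy. Each line gave 1 library before doxycycline (day 0) and 1 on each of days 5, 9, 12, 16 and 20. Experimental days 5 to 20 (5 libraries) were compared with all control days (6 libraries), with experimental day 0 apart, and the libraries of a line are time points of 1 cell line rather than independent cultures. Differences between these lines that have nothing to do with Sdhc cannot be told apart from it. The values are percentages, given here as beta values from 0 (unmethylated) to 1 (fully methylated), with no read numbers, so the depth behind a single value is unknown.

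SDH oxidises succinate to fumarate in the tricarboxylic acid (TCA) cycle and passes the electrons to ubiquinone in the inner mitochondrial membrane. SDHA carries the covalent flavin and binds succinate, SDHB holds the iron-sulphur clusters, and SDHC and SDHD anchor the complex in the membrane and form the ubiquinone site. SDHAF2 is needed to attach the flavin to SDHA, SDHAF4 takes up flavinylated SDHA, and SDHAF1 and SDHAF3 serve the maturation of SDHB. Loss of a subunit underlies familial paraganglioma, accumulated succinate inhibits the TET enzymes that oxidise methylcytosine, and methylation of the SDHC promoter is known from SDH-deficient gastrointestinal stromal tumours.

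The promoters are rich in CpG. RefSeq promoter sequences of build GRCm38.p6 (mm10), running from 250 bases before to 50 after the start, were matched for 7 of the 8 genes, all but Sdhc. They held a median of 25 CpG dinucleotides each, between 15 in Sdhb and 44 in Sdhaf2, against a median of 7 over 31223 autosomal promoter sequences. The sequences of Sdhb (chr4:140961021-140961320, plus strand), Sdhd (chr9:50603800-50604099, minus strand) and Sdhaf3 (chr6:6955768-6956067, plus strand) are shown because they belong to the iron-sulphur subunit, to a membrane anchor that shares its start region with another gene, and to the member with the largest difference between the lines. Each runs 5′ to 3′ along the gene, and capitals mark the cytosines, read on either strand, that were listed in at least 10 libraries. The Sdhaf3 sequence is placed around a start downstream of position 6955971, from which the distances of its cytosines are counted in the text.
Sdhb: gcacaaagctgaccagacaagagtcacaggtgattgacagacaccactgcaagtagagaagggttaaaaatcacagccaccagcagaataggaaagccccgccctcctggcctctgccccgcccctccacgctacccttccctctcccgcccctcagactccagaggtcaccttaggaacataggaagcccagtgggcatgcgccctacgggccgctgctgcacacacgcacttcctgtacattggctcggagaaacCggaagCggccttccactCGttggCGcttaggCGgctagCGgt
Sdhd: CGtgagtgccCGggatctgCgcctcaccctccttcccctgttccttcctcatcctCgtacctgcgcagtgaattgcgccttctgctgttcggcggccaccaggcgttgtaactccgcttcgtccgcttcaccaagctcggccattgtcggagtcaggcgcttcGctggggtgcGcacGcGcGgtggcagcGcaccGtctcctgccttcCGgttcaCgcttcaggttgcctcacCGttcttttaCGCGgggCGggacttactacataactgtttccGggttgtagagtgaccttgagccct
Sdhaf3: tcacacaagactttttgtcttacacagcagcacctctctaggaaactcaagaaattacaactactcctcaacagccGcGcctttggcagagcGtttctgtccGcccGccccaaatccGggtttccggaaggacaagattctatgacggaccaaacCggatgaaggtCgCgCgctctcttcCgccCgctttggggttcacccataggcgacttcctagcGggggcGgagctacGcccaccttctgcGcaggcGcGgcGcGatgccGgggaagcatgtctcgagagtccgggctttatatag
In these windows 98.1% of the listed values of Sdhb, 95.4% of Sdhd and 94.2% of Sdhaf3 were exactly 0. The Sdhaf3 cytosines from -945 to -313, described below, lie upstream of the sequence shown. CCGG, the sequence at which RRBS usually cuts, occurred in 7 of the 7 member sequences and in 53.6% of all promoter sequences. TGCGCA, the core of the NRF1 site, occurred in 4 of 7 against 7.77%, and CCGGAAG, a core of ETS factor sites that contains CCGG, in 5 of 7 against 9.03%. Both strands were searched, and a match is only a match of letters. Each of these motifs contains a CpG, and the shares over all promoter sequences were not matched for CpG number.

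The cytosines that were read lay close to the start site and not over the whole window. In Sdha they ran from +37 to +331, in Sdhb from +7 to +397 and in Sdhaf4 from +33 to +326 bp, so these values describe the first part of the gene. In Sdhc they ran from -312 to +494, in Sdhd from -290 to +486, in Sdhaf1 from -313 to +317, in Sdhaf2 from -772 to +162 and in Sdhaf3 from -945 to +263 bp. Sdhd shares its start region with Timm8b on the other strand (52 bp between the starts), Sdha with Ccdc127 (77 bp) and Sdhaf2 with Cpsf7 (14 bp). The promoter of Timm8b, a mitochondrial import chaperone gene, held the same 37 cytosines as Sdhd. Of the cytosines in the Sdha and Sdhaf2 promoters, 27 of 27 and 52 of 63 also lay in the neighbour's promoter. For these pairs the methylation of the gene and its neighbour cannot be told apart.

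All 4 subunit promoters were almost free of methylation in both lines at every day, the targeted Sdhc included. The Sdhc promoter (gene at chr1:171129157-171150640, minus strand, 25 cytosines) had beta values of 0.00298, 0.0182, 0.00531, 0.0609, 0.00633 and 0.0225 in the control line on day 0 and the following days 5, 9, 12, 16 and 20. In the experimental line they were 0.0145 on day 0 and 0.0132, 0.00526, 0.0369, 0.00800 and 0 on days 5 to 20. The groups overlapped, with the highest value in control day 12, and the means were 0.0127 ± 0.0144 (SD, n = 5) and 0.0194 ± 0.0218 (SD, n = 6). The difference was -0.00669 (95% interval -0.0314 to 0.0180, limma on beta values), and limma on M-values, the log2 ratio of methylated to unmethylated fraction, gave an adjusted p of 0.796. The cytosine with the largest difference lay at -312 and was at 0.913 in control day 12 and at 0 in the other 11 libraries. The deletion itself was not checked, since exon 4 was not analysed here.

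The Sdha promoter (chr13:74322255-74350240, minus strand, 27 cytosines), the flavoprotein gene, ranged from 0 to 0.00842 in the control line with a median of 0.00481, and from 0 to 0.0167 in the experimental line. The Sdhb promoter (chr4:140961271-140979198, plus strand, 41 cytosines) ranged from 0 to 0.0439 with a median of 0.000329, and from 0.000581 to 0.0277. The Sdhd promoter (chr9:50596340-50603849, minus strand, 37 cytosines), the second membrane anchor, ranged from 0.000399 to 0.0143 with a median of 0.00447, and from 0.000614 to 0.00991. The groups overlapped in each. The differences, experimental minus control, were 0.00235 in Sdha (95% interval -0.00569 to 0.0104), -0.000423 in Sdhb (-0.0204 to 0.0196) and -0.00165 in Sdhd (-0.00841 to 0.00510), with adjusted p-values of 0.848, 0.915 and 0.827. The signs of the Sdha, Sdhb, Sdhc and Sdhd differences turned when a single library was left out, and their 95% intervals reach no further than 0.0314 from 0. Their largest single-cytosine differences were 0.0889 at +331 in Sdha, -0.1 at +25 in Sdhb and -0.0417 at -275 in Sdhd.

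**Figure D1:**
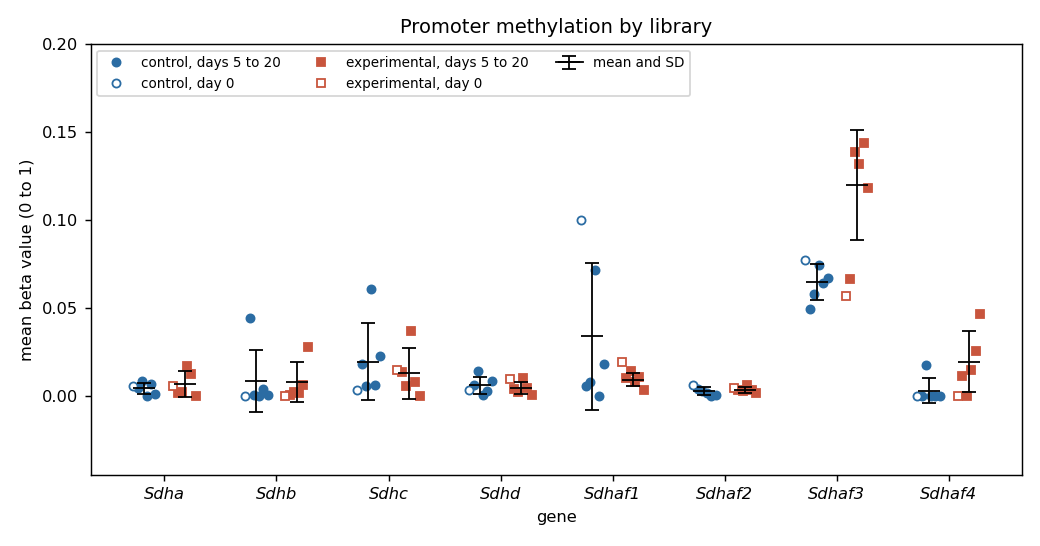
Mean promoter beta value (0 to 1) of each SDH gene in each of the 12 libraries, control as circles and experimental as squares, with day 0 open and days in order from left to right. Black bars give the mean and SD of the 6 control libraries and of the 5 experimental libraries from day 5 on. Only Sdhaf3 lies at or above 0.0495 in all 12 libraries, and the 7 other genes lie at or near 0 in most.

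The assembly factor promoters were less uniform. The Sdhaf2 promoter (chr19:10500512-10525209, minus strand), for the flavinylation factor, was the lowest of the 8 although it had the most cytosines, 63. It ranged from 0 to 0.00609 in the control line with a median of 0.00209 and from 0.00137 to 0.00622 in the experimental line, with a difference of 0.000832 (95% interval -0.00370 to 0.00537) and an adjusted p of 0.820. Its largest single difference was -0.0600 at -649, where control day 0 was at 0.300 and the other libraries that listed it at 0.

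The Sdhaf1 promoter (chr7:30321409-30322375, minus strand, 35 cytosines) showed single libraries with much methylation. The control line was at 0.1, 0.00563, 0.00756, 0.0716, 0 and 0.0179 on days 0 to 20, and the experimental line at 0.0189 on day 0 and at 0.00983, 0.0138, 0.00797, 0.0104 and 0.00344 from day 5 on. The groups overlapped (difference -0.0247, 95% interval -0.0652 to 0.0159, adjusted p = 0.610), and without control day 0 the difference was -0.0114. The values above 0.05 came from 4 cytosines at +242 to +250, whose mean was 0.875 in control day 0, 0 in control days 5 and 16, 0.0625 and 0.120 in control days 9 and 20, and between 0.0147 and 0.0893 in the experimental line from day 5 on. Their mean on experimental day 0 was 0.115. Control day 12 listed 2 of the 4, at 0.885 (+243) and 0.173 (+250). Without these 4 the promoter had means of 0.00548 ± 0.00320 (SD, n = 5) in the experimental and 0.00433 ± 0.00563 (SD, n = 6) in the control line. Both groups of cytosines were chosen after their values were seen and were not tested.

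The Sdhaf4 promoter (chr1:23995939-24005640, minus strand, 18 cytosines) was at exactly 0 in both day 0 libraries and in 5 of the 6 control libraries, control day 9 being at 0.0172. In the experimental line it was at 0.0111, 0, 0.0144, 0.0251 and 0.0463 on days 5, 9, 12, 16 and 20. The experimental libraries were above the control library of the same day on 4 of 5 days, yet the groups overlapped (difference 0.0165, 95% interval -0.000462 to 0.0335; M-value difference 1.12 ± 0.44 (SE); limma adjusted p = 0.235). The whole of the day 20 value came from the cytosine at +60, which was at 0.833 there, at 0.133 on experimental day 16 and at 0 in the other libraries that listed it. Without experimental day 20 the difference was 0.00979.

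Sdhaf3 was the exception among the 8 promoters. Its promoter (chr6:6955971-7039661, plus strand, 33 cytosines) was at 0.0771, 0.0495, 0.0580, 0.0741, 0.0639 and 0.0669 on the 6 control days, earliest first. The experimental line began at 0.0566 on day 0 and was at 0.0664, 0.139, 0.132, 0.144 and 0.118 on days 5, 9, 12, 16 and 20. From day 9 on every experimental library was above every control library, whereas experimental day 5 lay inside the control range. The means were 0.120 ± 0.0313 (SD, n = 5) and 0.0649 ± 0.0102 (SD, n = 6), a difference of 0.0548 (95% interval 0.0257 to 0.0838, limma on beta values). On M-values the difference was 0.85 ± 0.23 (SE), and the limma adjusted p over all 14989 promoters was 0.0943, short of the threshold of 0.05. Without experimental day 5 the adjusted p was 0.0411 and the difference 0.0681. On the 21 cytosines listed in all 12 libraries the difference was 0.0210 with an adjusted p of 0.290.

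Within that promoter the methylation lay mostly at the upstream end. The cytosines at -945 and -831 were methylated in all 12 libraries, with a mean of 0.916 ± 0.0595 (SD, n = 5) in the experimental and 0.737 ± 0.148 (SD, n = 6) in the control line. The 3 cytosines at -361, -358 and -313 were intermediate and variable: their mean was 0 on experimental day 0 and 0.167, 0.667, 0.778, 0.667 and 0.425 on days 5 to 20, and 0.333, 0.146, 0.202 and 0.333 on control days 0, 5, 16 and 20. Control days 9 and 12 listed none of these 3, so their promoter means rest on the other cytosines. The remaining 28 cytosines, from -127 to +263, were at exactly 0 for all 159 values of the control line, and 16 of 134 values of the experimental line from day 5 on were above 0, with a mean of 0.0126 ± 0.0138 (SD, n = 5). These divisions were made after the values were seen and carry no test.

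The cytosine at -361 had the largest difference of any member cytosine. It was at 0, 0.188, 0.607 and 0.333 on control days 0, 5, 16 and 20, at 0 on experimental day 0 and at 0.5, 1, 1, 1 and 0.759 on experimental days 5 to 20. The groups overlapped between 0.5 and 0.607 (means 0.852 ± 0.223 and 0.282 ± 0.256, SD, n = 5 and 4), and limma gave an adjusted p of 0.208 over 917382 cytosines. At -831 the means were 0.933 and 0.617 (limma adjusted p = 0.397), with experimental day 0 already at 1.

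**Figure D2:**
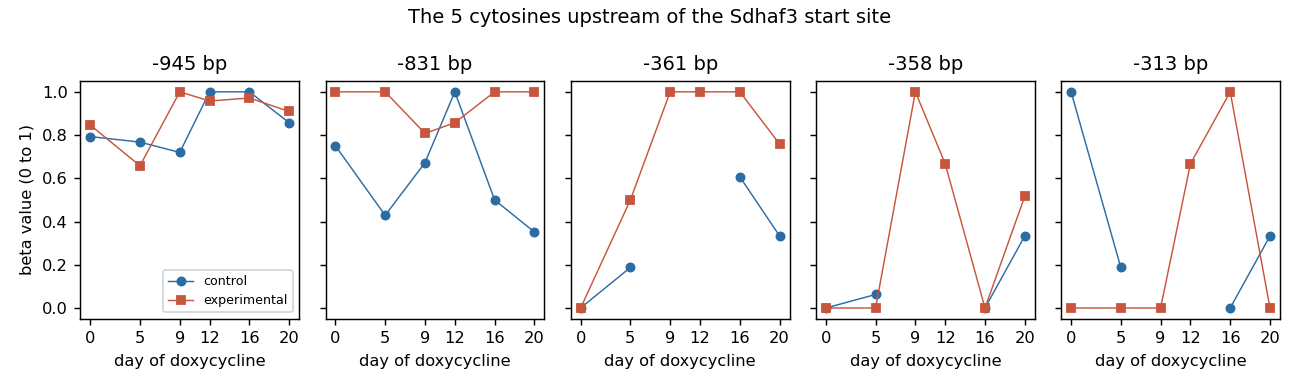
Beta value (0 to 1) of the 5 cytosines that lie more than 300 bp upstream of the Sdhaf3 start site, by day of doxycycline, control as circles and experimental as squares; days on which a cytosine was not listed are left out. At -361 bp the experimental line goes from 0 on day 0 to 1 on days 9 to 16, while the control line reaches 0.607.

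In total 0 of 8 member promoters passed an adjusted p of 0.05 by limma with Benjamini-Hochberg adjustment, against 2.13% of all 14989 promoters tested (240 higher and 80 lower in the experimental line). At an unadjusted p under 0.05 there were 2 of 8, Sdhaf3 and Sdhaf4, against 16.2% of all. In 0 of 8 did the groups fail to overlap, against 4.46% of all promoters. Of the differences 4 were positive and 4 negative, with a median of 0.000205, against 0.00238 over all promoters, and the median absolute difference was 0.00452 against 0.0102. By size, the Sdhaf3 difference exceeded that of 80.1% of all promoters and the Sdhb difference that of 3.75%. Leaving out library after library moved the count of called member promoters only in the case of experimental day 5 described for Sdhaf3. Control day 12, with the fewest cytosines, listed 166 of the 279 member promoter cytosines against 238 to 279 in the other libraries.

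**Figure D3:**
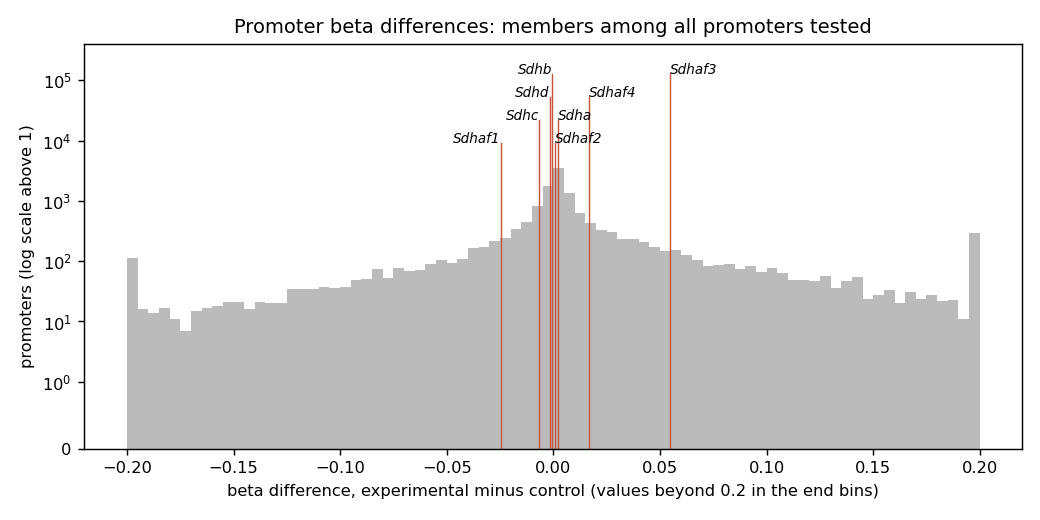
Differences in promoter beta value, experimental minus control, for all 14989 promoters tested (grey bars, number of promoters on a log axis, with the 384 beyond 0.2 in either direction in the end bins) and for the SDH genes (red lines). The lines of 7 genes stand between -0.0247 and 0.0165 in the bulk of the distribution and that of Sdhaf3 at 0.0548.

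Set against all promoters by level, 7 of the 8 SDH promoters had a mean beta below the median of 0.0358, and Sdhaf3 was above it. Over the 12 libraries, 7 of the 8 had a mean beta under 0.05, as did 54.2% of all promoters. The share of promoters at or below the member was 10.0% for Sdhaf2, 22.1% for Sdha, 22.7% for Sdhd, 28.5% for Sdhb, 33.2% for Sdhaf4, 41.1% for Sdhc, 44.6% for Sdhaf1 and 61.6% for Sdhaf3. Of the 3149 listed values in the 8 promoters, 92.5% were exactly 0 and 44 were at 0.5 or above, 34 of them in Sdhaf3. No read numbers stand behind these values, so a listed 0 sets no upper limit.

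Gene bodies ranged from nearly unmethylated to almost fully methylated. Values could be formed for 6 of 8 genes, since Sdha had 1 cytosine and Sdhd none. Over all members, the 27 cytosines more than 3 kb from the start had a mean beta of 0.930 ± 0.0286 (SD, n = 5) in the experimental and 0.904 ± 0.0347 (SD, n = 6) in the control line, whereas the 264 cytosines within 1 kb of the start in the 7 genes other than Sdhaf3 had means of 0.00865 ± 0.00414 and 0.0104 ± 0.00606. With Sdhaf3 included, the 297 cytosines within 1 kb had means of 0.0212 ± 0.00566 (experimental) and 0.0166 ± 0.00657 (control). The division by distance and the setting apart of Sdhaf3 were made with the values known and were not tested.

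**Figure D4:**
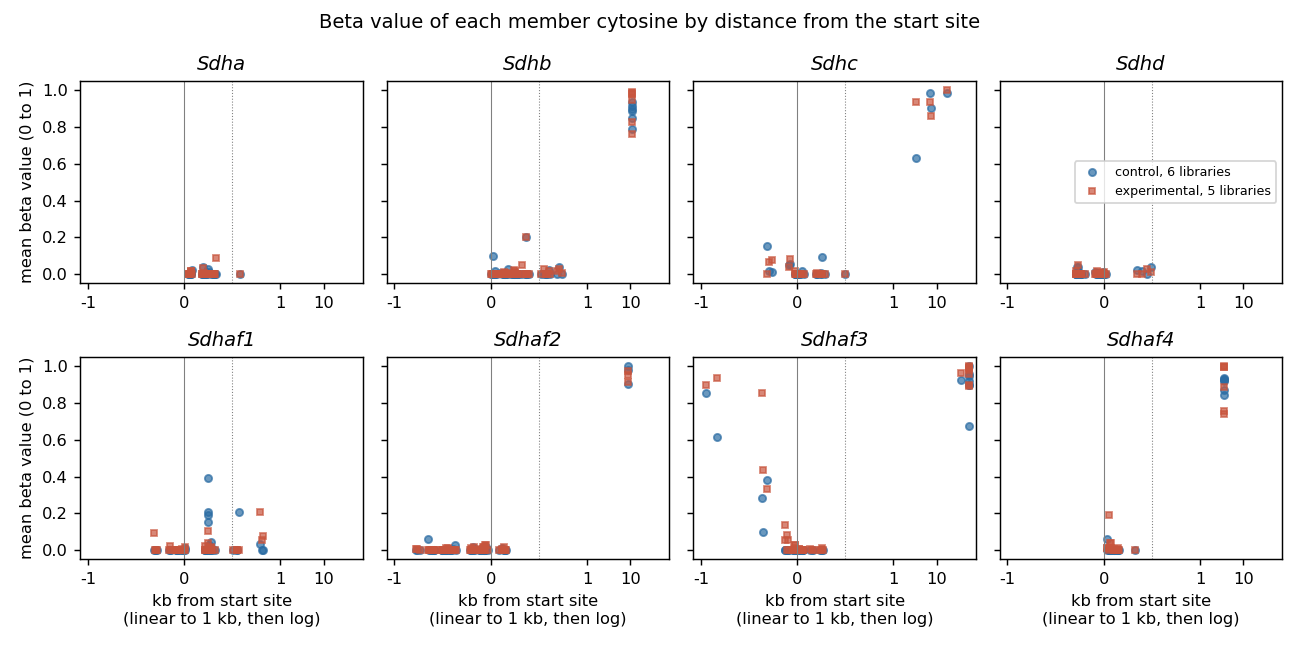
Mean beta value (0 to 1) of each member cytosine against its distance from the start site, in kb, for the 6 control libraries (circles) and the 5 experimental libraries from day 5 on (squares); the axis is linear to 1 kb and logarithmic beyond, and the dotted line marks the end of the promoter at 500 bp. Most cytosines near the start lie close to 0 in both lines. Among the exceptions are Sdhaf3 at -361 bp (0.852 experimental, 0.282 control) and -313 bp (0.333 and 0.380), and Sdhaf1 at +243 bp (0.0375 and 0.391). All that lie beyond 3 kb are above 0.6 in both lines, as are the upstream cytosines of Sdhaf3 at -945 and -831 bp.

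The Sdhb gene body joined both states. Its 10 cytosines between +521 and +737 were nearly unmethylated (0.00955 ± 0.00915, SD, n = 5, experimental; 0.00679 ± 0.0158, SD, n = 6, control), and its 6 cytosines between +10677 and +10763 were methylated (0.916 ± 0.0528 and 0.880 ± 0.0574). The whole body was at 0.349 ± 0.0169 (SD, n = 5) and 0.347 ± 0.0356 (SD, n = 6), a difference of 0.00250 (95% interval -0.0376 to 0.0426, adjusted p = 0.964). The largest cytosine difference was 0.189 at +10763, where control days 0, 9 and 20 were at 0.556, 0.559 and 0.630 and all other libraries at 0.9 or 1. Among 16354 other gene bodies with at least 5 cytosines, the smallest mean absolute differences from the Sdhb body over the 12 libraries were those of Tefm (0.0167), Bahcc1 (0.0202) and Dchs2 (0.0203), a likeness of level that rests on values which hardly moved.

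The Sdhc gene body, with 4 cytosines between +3301 and +17250, was methylated in every library. The control line was at 0.984, 0.871, 0.750, 0.994, 0.955 and 0.881 on days 0 to 20, and the experimental line at 0.876 on day 0 and at 0.960, 0.959, 0.885, 0.909 and 0.950 from day 5 on. The groups overlapped (0.933 ± 0.0336, SD, n = 5, and 0.906 ± 0.0922, SD, n = 6; difference 0.0266, 95% interval -0.0645 to 0.118, adjusted p = 0.990). The low value of control day 9 came from the cytosine at +3301, which was at 0 there, at 0.533 on control day 5 and at 0.667 or 1 in the other libraries that listed it. On the 3 cytosines listed in all 12 libraries the difference was -0.0250.

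Of the assembly factors, the bodies of Sdhaf2 (3 cytosines, +8894 to +9034), Sdhaf3 (8 cytosines, +35402 to +56023) and Sdhaf4 (6 cytosines, +3492 to +3611) were methylated, and that of Sdhaf1, a short gene whose 7 body cytosines ended at +821, was not. Sdhaf3 was at 0.959 ± 0.0334 (SD, n = 5) in the experimental and 0.904 ± 0.0623 (SD, n = 6) in the control line (difference 0.0553, 95% interval -0.0108 to 0.121, adjusted p = 0.594). Its largest cytosine difference, 0.307 at +55868, came from control days 0 and 16 at 0 and 0.05 against 0.941 to 1 in all other libraries. Sdhaf2 was at 0.945 ± 0.0311 and 0.963 ± 0.0369 (adjusted p = 0.737), Sdhaf4 at 0.896 ± 0.0674 and 0.904 ± 0.0610 (adjusted p = 0.946) and Sdhaf1 at 0.0491 ± 0.0618 and 0.0242 ± 0.0351 (adjusted p = 0.748). In Sdhaf1 a single cytosine at +784 was at 1 on experimental day 12 and at 0.115 or below elsewhere, and the largest difference, -0.207 at +566, came from control day 0 at 0.615 and control day 9 at 0.214.

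The Sdhaf2 cytosine at +8894 had the smallest p of the member cytosines. It was at 1 in all 6 control libraries and at 0.936 on experimental day 0, then at 0.867, 1, 0.920, 0.915 and 0.868 on days 5, 9, 12, 16 and 20 (difference -0.0861, limma adjusted p = 0.174). Without experimental day 9 the adjusted p was 0.0497 and the difference -0.108. In Sdhaf4 the cytosine at +3563 was lower in the experimental line (0.742 ± 0.206 against 0.926 ± 0.110, difference -0.185, adjusted p = 0.355), with experimental day 9 lowest at 0.389, and the one at +3492 was at 1 in every experimental library against 0.919 ± 0.0857 in the control line (adjusted p = 0.390).

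**Figure D5:**
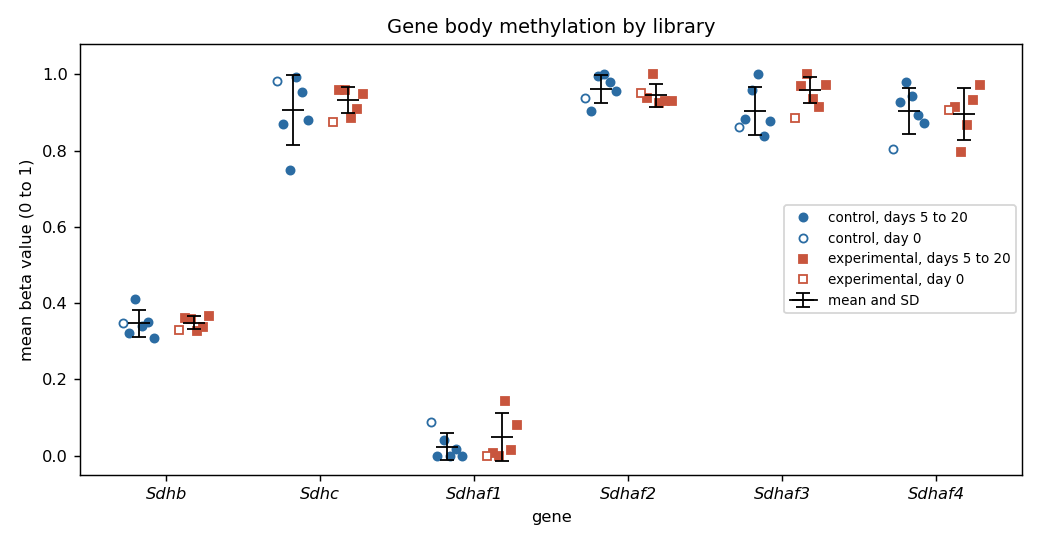
Mean gene body beta value (0 to 1) of the 6 SDH genes with at least 3 body cytosines in each library, drawn as for the promoters, with the mean and SD of 6 control and 5 experimental libraries in black. The Sdhaf1 body lies at 0.143 or below, the Sdhb body between 0.310 and 0.412, and the bodies of Sdhc, Sdhaf2, Sdhaf3 and Sdhaf4 at 0.750 or above, with the lines overlapping in each.

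By limma 0 of 6 member gene bodies passed the threshold, against 2.22% of 18280 gene bodies, and 0 of 6 had an unadjusted p under 0.05, against 16.7%. None of the 6 had groups that did not overlap, against 5.09% of all. Of the 150 member cytosines that varied and could be tested, 0 passed, against 0.452% of 917382, and 6 had an unadjusted p under 0.05, against 10.8%: 3 in the Sdhaf3 promoter (-831, -361 and -19), 1 in the Sdhaf2 body (+8894) and 2 in the Sdhaf4 body (+3492 and +3563). In 0 of the 150 did the groups fail to overlap, against 2.12% of all. A further 169 of the 324 cytosines were at 0 in every library that listed them.

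Time on doxycycline was addressed by the difference in slope over days between the lines, over all 12 libraries. By limma 0 of 8 promoters and 0 of 6 gene bodies passed, as did 0.0% of all 15001 promoters and 0.0% of all 18281 gene bodies. At an unadjusted p under 0.05 there were 1 of 8 promoters, against 4.08% of all, and 1 of 6 bodies, against 3.59%. The promoter was Sdhaf4 (slope difference 0.13 ± 0.05 (SE) M-value units per day, limma adjusted p = 1.00), and the body was that of Sdhaf1 (0.28 ± 0.11 (SE), adjusted p = 1.00). For the Sdhaf3 promoter the slope difference was 0.06 ± 0.03 (SE; limma adjusted p = 1.00). On day 0, before Cre was induced, the experimental minus control difference was -0.0204 in the Sdhaf3 promoter, 0 in the Sdhaf4 and Sdhb promoters and 0.0116 in the Sdhc promoter, with 1 library on each side. Day 0 differences were larger in the Sdhaf1 promoter (-0.0811) and in the bodies of Sdhc (-0.108), Sdhaf4 (0.1) and Sdhaf1 (-0.0879).

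The other genes of the pathway were counted in the same way. Of the 14 other TCA cycle genes, 12 had a promoter value (Idh2 and Idh3g had none), 0 of 12 passed in either direction, against 2.13% of all promoters, and 1 had an unadjusted p under 0.05, against 16.2%. The median difference was 0.00299, and 11 of the 12 were under 0.05 in both lines. The largest positive differences were those of Dld, the dihydrolipoamide dehydrogenase gene (0.222 ± 0.0169, SD, n = 5, against 0.199 ± 0.0336, SD, n = 6; adjusted p = 0.629), and Suclg1 (0.0152 against 0.00716; adjusted p = 0.385), and the largest negative those of Suclg2 (0.00841 against 0.0148; adjusted p = 0.394) and Sucla2 (0.00202 against 0.00747; adjusted p = 0.840). The last 3 encode subunits of succinyl-CoA synthetase, the enzyme that forms succinate. Of 13 genes for flavin and iron-sulphur supply, succinate transport and sensing and SDH-binding proteins, 10 had a promoter value (Rfk, Hscb and Sucnr1 had none) and 0 of 10 passed, with 0 at an unadjusted p under 0.05 and a median difference of 0.000127. Trap1, a mitochondrial chaperone gene, was methylated in both lines (0.928 ± 0.0896 and 0.884 ± 0.104, 6 cytosines, adjusted p = 0.690), and the most negative differences were those of Nfs1 (0.00785 against 0.0116; adjusted p = 0.890) and Iscu (0.0159 against 0.0191; adjusted p = 0.835). In the gene bodies 0 of 11 TCA cycle genes and 0 of 11 partner genes passed, against 2.22% of all gene bodies.

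The fibroblast label was compared with promoter methylation of marker genes, as a description of DNA and not of expression. The promoters of Vim, Fn1 and Pdgfrb had mean beta values of 0.00403, 0.00467 and 0.00833 over the 12 libraries, Col1a1 of 0.208 and Col1a2 of 0.764, whereas the epithelial genes Cdh1 and Krt18 had means of 0.244 and 0.479. Thy1, Epcam, Krt8 and the 3 haematopoietic genes Ptprc, Cd79a and Spi1 had no promoter value. Col1a2, a fibroblast gene, was thus among the methylated promoters.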

How the data were processed

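RRBS libraries were made from 12 iMEF samples, 1 per line and day. Per the study's methods the authors mapped the paired reads with Bismark (build mm10) and called CpG methylation with its extractor, and the deposited values are the percent methylation of each cytosine, each strand apart, without read numbers; the depth is therefore unknown and no counting interval was formed. The libraries listed 932307 (control day 12) to 1716381 cytosines.

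The percent was divided by 100 (beta). Autosomal cytosines listed in at least 10 of 12 libraries were averaged per promoter (1500 bp upstream to 500 bp downstream of the RefSeq GRCm38.p6 start) and per gene body, with at least 3 cytosines. Strand came from RefSeq promoter sequences or, by symbol only (Sdhc among them), GENCODE M1; of 15532 genes with both, 15489 were equal. M-values, log2((beta + 0.01)/(1 - beta + 0.01)), were fitted with limma 3.58.1 in R 4.3.3 on 5 experimental (days 5 to 20) and 6 control libraries, as in the study's own comparison, and, for slopes, with a line by day term on 12. Features constant over the fitted libraries were left out. p-values were adjusted by Benjamini-Hochberg over all features, with a threshold of 0.05. Intervals are 95% limma intervals on beta values. The p-values measure the spread between time points of 1 line each. The fits were also run on simulated data with known changes. Those data held independent, normally distributed values, so they do not bear on p-values for time points of 1 line. Tables used pandas 2.3.3, scipy 1.17.1 and numpy 2.4.6 under Python 3.11.15, and figures matplotlib 3.10.9.

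The genes, lists and tests were chosen with earlier results of these data known. Named are the 8 genes, genes starting within 2000 bp of them, for each region the cytosine with the largest difference, member cytosines past the threshold, for 2 pathway lists the 2 largest differences in each direction, and 3 gene bodies most like the member body with the most cytosines at a mean beta of 0.1 to 0.9; cytosines with an unadjusted p under 0.05, and single values that carry a mean, were added after seeing them. Alternatives covered the offset, beta values, the cytosine filters and windows, merged strands, experimental day 0, the day as a block, and each library left out. Exon 4 of Sdhc was not analysed here. Some genes that the naming rule covers are not reported here.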

Additional observations from a re-analysis of the deposited data

Results flagged for a closer look

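In 28 groups (6 control or 5 experimental libraries of a member promoter or gene body), 5 held a library that stood apart from the rest by more than Dixon's critical value. Chance alone passes this value in about 1 of 20 groups when values are normally distributed. Many promoter means here lie at or near 0, so that rate does not carry over, and 5 of 28 cannot be read as an excess. The Sdhb promoter was at 0.0439 in control day 5 against 0.00401 in the next library, where the cytosines at +25 and +364 were at 0.5 and 1. It was at 0.0277 in experimental day 20 against 0.00620, where the cytosine at +364 was again at 1. The Sdhc promoter was at 0.0609 in control day 12 against 0.0225, with the cytosine at -312 at 0.913; this library listed the fewest cytosines. The Sdhaf4 promoter was at 0.0172 in control day 9 and at 0 in the other control libraries, with the cytosine at +33 at 0.310. The Sdhaf2 gene body, of 3 cytosines, was at 1.00 in experimental day 9 against 0.939. The read number behind each of these values is unknown, and its part in them was not tested.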

How the results depend on the processing

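The counts of members past the threshold stayed at 0 in 87 of 89 alternatives. Leaving out libraries gave 0 to 1 member promoters (Sdhaf3 without experimental day 5) and 0 to 1 member cytosines (Sdhaf2 +8894 without experimental day 9), and 0 for gene bodies and slopes. With the day as a replicate block, 0 member promoters, gene bodies and cytosines passed. The calls over all features fell from 320 to 4 promoters, from 406 to 7 gene bodies and from 4145 to 0 cytosines. That fit left out control day 0 and gave each day a term, so its counts do not rest on the same libraries. Deviations of same-day libraries had correlations of -0.0491 to 0.0519. The same-day correlation was the highest only for day 5, in both promoters and gene bodies. These correlations do not decide whether the days pair samples beyond their label. Over all features, leaving out a library gave 107 to 384 promoters, 192 to 586 gene bodies and 2095 to 4131 cytosines, and including experimental day 0 gave 520, 728 and 6344. On beta values 632 gene bodies and 7647 cytosines were called, with an offset of 0.05 6713 cytosines, and on cytosines listed in all 12 libraries 719 gene bodies.

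Of 291 alternative values of single member regions, 23 changed sign, none of them with an adjusted p under 0.05 in either setting. On cytosines listed in all 12 libraries the difference was -0.00357 for the Sdha promoter, 0.00159 for the Sdhb promoter and -0.0250 for the Sdhc gene body. With the gene body taken from the start site it was -0.00504 for Sdhb, -0.0294 for Sdhaf1 and 0.00726 for Sdhaf2, and with experimental day 0 included -0.000808 for the Sdhb gene body. Leaving out libraries gave -0.000179 to 0.00400 for the Sdha promoter, -0.00543 to 0.00674 for Sdhb, -0.0127 to 0.00161 for Sdhc and -0.00309 to 3.6e-05 for Sdhd, and for gene bodies -0.00495 to 0.0156 for Sdhb, -0.00465 to 0.0442 for Sdhc and -0.0269 to 0.0177 for Sdhaf4. The Sdhaf3 promoter was positive in every alternative, from 0.0210 to 0.103 (adjusted p 0.0411 to 0.290). The causes were not tested. With percentages alone, the precision of a single cytosine is unknown.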

Other observations

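In the member genes 47 pairs of neighbouring positions, taken as the cytosines of the 2 strands of a CpG, were both listed in at least 10 libraries. In 38 of them the 2 values lay within 0.2 of each other in every library. Most listed promoter values were exactly 0, so this closeness does not measure the agreement of the strands.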
